A study of Mus musculus with 12 samples.

Results

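The transcripts of 9 sialyltransferases were followed in peritoneal cavity (PerC) B cells of control and GPR34 knock-in (KI) mice. The members were 3 genes of the St8sia family (St8sia6, St8sia4 and St8sia1), St6gal1, and 5 genes of the St3gal family (St3gal1, St3gal2, St3gal3, St3gal4 and St3gal6), out of 56941 genes in the count table. St8sia6 was selected for its lower counts in KI B2, and the other 8 were taken by name as its family. KI mice carried a Cre-dependent allele at Rosa26 that encodes a C-terminally truncated, gain-of-function GPR34 followed by an IRES and GFP, and Cd21-Cre, which acts in mature B cells, removed its stop cassette. Whether controls carried Cd21-Cre was not given in the sources used here. From adult mice of both genotypes, for which no treatment is given, B2 (positive for IgD and IgM) and MemB (negative for both) were sorted, which gave 4 groups of 3 RNAseq libraries. MemB are therefore defined by the absence of surface IgD and IgM, and bulk RNA from a sorted gate averages over all cells in it. In such bulk samples, fewer cells that express a gene and less RNA per cell cannot be told apart.

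Sialyltransferases are Golgi enzymes that move sialic acid from its activated donor, CMP-sialic acid, to the ends of glycan chains. The families differ in the bond they make. ST6GAL1 caps the N-glycans of B cells with alpha-2,6-linked sialic acid, the ligand of the inhibitory receptor CD22. ST3GAL enzymes add alpha-2,3-linked sialic acid to galactose, and ST8SIA enzymes add a further sialic acid to one already present, in alpha-2,8 linkage. Siglec receptors read these caps, and B cells carry CD22 and Siglec-G.

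Library totals ranged from 29895031 to 39732039 counts, of which ribosomal RNA took 29.3% to 38.3%. Replicates of a group correlated at 0.802 to 0.837 across genes (log2 CPM, 12 pairs), and the common biological coefficient of variation was 91.4%. Gpr34 followed the genotype labels, with 100 to 113 CPM (counts scaled to the TMM library size) in KI B2 against 3.42 to 6.87 CPM in control B2, and 132 to 168 CPM in KI MemB against 18.8 to 30.8 CPM in control MemB. The 6 B cell markers summed to 2718 to 3282 CPM in every library. Replicate 3 of each group had 2417 to 3236 CPM of Xist and at most 2.48 CPM of the Y-linked Ddx3y, against at most 66.6 CPM and at least 40.2 CPM in the other replicates, so each group mixed the sexes in the same way. The labels call the replicates biological, and whether B2 and MemB libraries with 1 number came from 1 mouse was not given.

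St8sia6 spans chr2:13655832-13798896 (minus strand, GRCm39, the assembly that mm39 denotes, with GENCODE M39 models) and its canonical transcript has 8 exons. The lncRNA Gm37126 lies within its span on the opposite strand and had at most 64 counts in any library. St8sia4, at chr1:95515404-95595355 (minus strand, 5 exons), overlaps the gene model Gm37642 on its own strand, which had 13 to 256 counts. St8sia1 lies at chr6:142767271-142910178 (minus strand) and St6gal1 at chr16:23043460-23179103 (plus strand). The St3gal genes lie at chr15:66974724-67048690 (St3gal1, minus strand), chr8:111646367-111699497 (St3gal2, plus strand), chr4:117789348-117992380 (St3gal3, minus strand), chr9:34957872-35034889 (St3gal4, minus strand) and chr16:58286438-58344780 (St3gal6, minus strand). The span of each of the 9, introns included, overlaps at least 1 other annotated gene. Shared exons were not examined and use of strand in the counting was not stated, so how far reads were shared with such genes is not known.

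The 250 bases before the gene models of the 2 St8sia genes with substantial counts are shown because these genes, of the same family, had unlike patterns over the groups. They are written 5′ to 3′ on the strand of the gene, at chr2:13798897-13799146 for St8sia6 and chr1:95595356-95595605 for St8sia4 (GRCm39), with CpG dinucleotides in capitals. The start of each gene is that of its GENCODE M39 model; RefSeq places it further downstream, so the stretch and its CpG count depend on the annotation.

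St8sia6: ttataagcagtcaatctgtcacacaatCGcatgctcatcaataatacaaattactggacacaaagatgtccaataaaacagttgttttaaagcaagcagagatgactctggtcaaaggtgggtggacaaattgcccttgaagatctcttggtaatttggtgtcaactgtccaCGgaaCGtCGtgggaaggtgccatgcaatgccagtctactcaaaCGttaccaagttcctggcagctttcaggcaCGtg

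St8sia4: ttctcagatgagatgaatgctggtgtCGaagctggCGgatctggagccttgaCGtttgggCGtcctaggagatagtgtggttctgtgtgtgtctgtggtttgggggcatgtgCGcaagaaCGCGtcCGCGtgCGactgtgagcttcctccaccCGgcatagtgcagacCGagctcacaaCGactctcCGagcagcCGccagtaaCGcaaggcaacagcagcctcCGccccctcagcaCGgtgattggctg

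The St8sia6 stretch held 6 CpG (44% G and C), equal to the median of 6 over 21243 protein-coding genes, and 52% of those genes had as many or more. Genes of chromosome 18 and of the mitochondrial genome were left out of this background. The St8sia4 stretch held 18 CpG (59.6% G and C), a number reached by 15.3% of genes. These counts describe the letters in those windows, and no measurement of methylation or binding there was made.

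Scaled to exon length, St6gal1 and St3gal1 were the most abundant members and St8sia1 was near absent. Over the 12 libraries the mean level was 40.01 RPKM (CPM per kilobase of merged exons) for St6gal1, 34.6 RPKM for St3gal1, 15.2 RPKM for St8sia6, 8.77 RPKM for St8sia4 and 3.24 RPKM for St3gal6. The remaining means were 1.91 RPKM for St3gal2, 0.918 RPKM for St3gal4, 0.460 RPKM for St3gal3 and 0.109 RPKM for St8sia1. Neighbours in this order were often within their spread. St6gal1 exceeded St3gal1 in 9 of 12 libraries, St8sia6 exceeded St8sia4 in 9 of 12, St3gal2 exceeded St3gal4 in 9 of 12 and St3gal4 exceeded St3gal3 in 8 of 12, while St8sia4 exceeded St3gal6 in 12 of 12. The place of St8sia4 depends on the transcript length used, because its merged exons are 20153 bases and its longest coding transcript 10122. The 3 libraries in which St8sia6 did not exceed St8sia4 were those of KI B2. With the longest coding transcript, mean RPKM over the 12 libraries was 17.5 for St8sia4 and 15.2 for St8sia6, and the order differed between the groups. St8sia4 was then the higher by group mean in control B2 (13.7 against 11.3 RPKM) and KI B2 (15.6 against 4.29 RPKM). St8sia6 was the higher in control MemB (23.2 against 18.7 RPKM), and in KI MemB the means were 22.2 RPKM for St8sia6 and 21.98 RPKM for St8sia4.

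**Figure D1:**
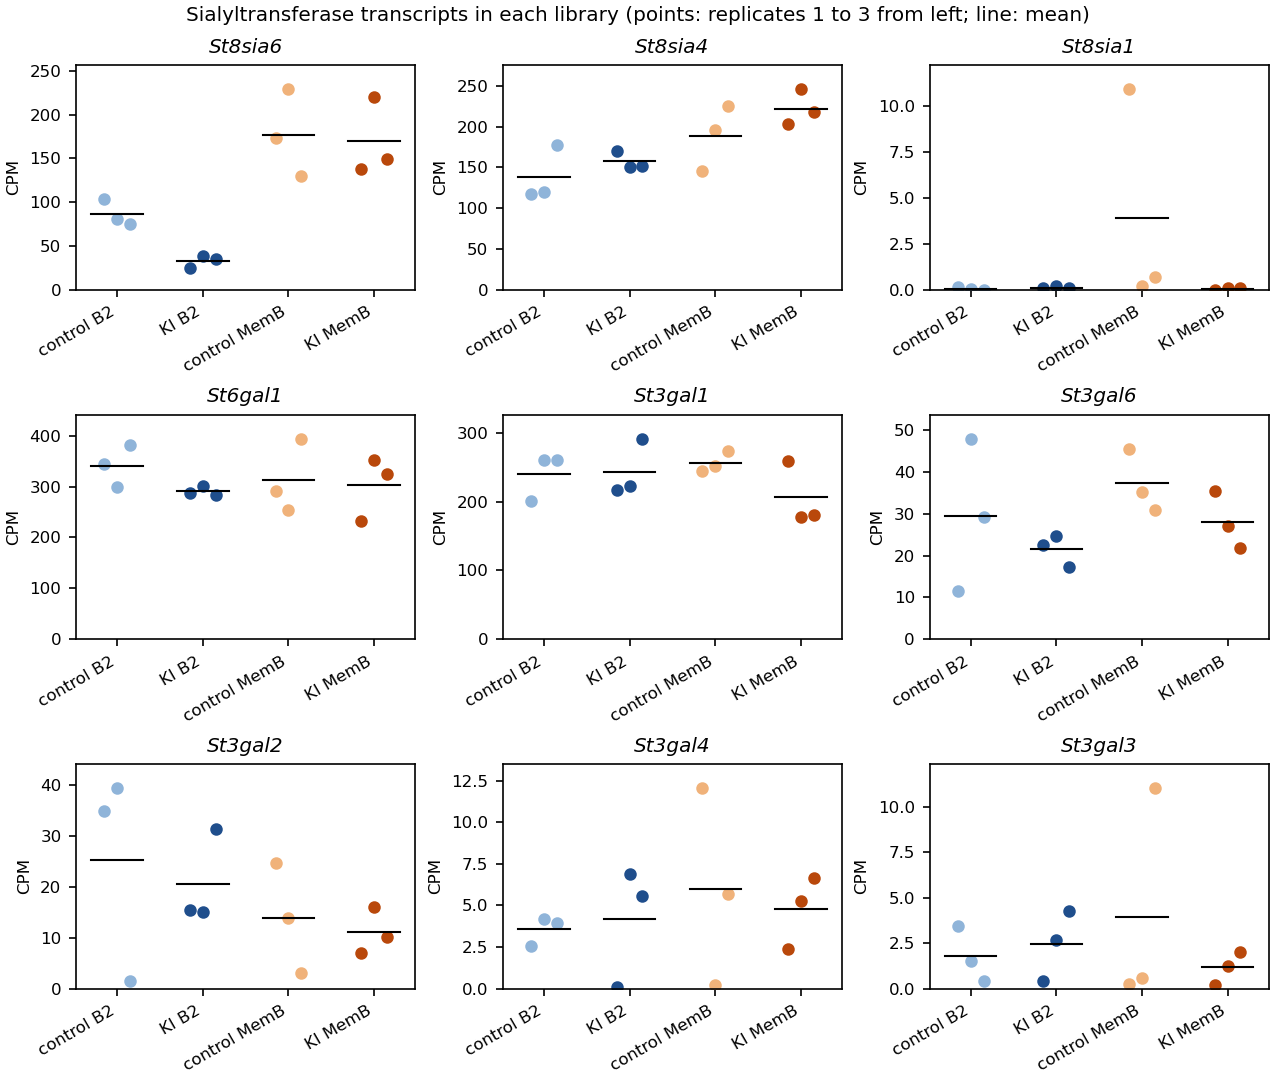
CPM of each sialyltransferase (vertical axes, linear, from 0, with a scale of their own) in the 4 groups, where points are replicates 1 to 3 from left to right and the line is the group mean. St8sia6 lies at 24.7 to 38.2 CPM in KI B2 and at 129 to 229 CPM in MemB, whereas St6gal1 and St3gal1 lie at similar heights in all groups and St8sia1 rests on 1 control MemB library.

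St8sia6 makes alpha-2,8-linked disialic acid on glycoproteins. In control B2 it had 104, 80.9 and 75.1 CPM in replicates 1 to 3, and in KI B2 24.7, 38.2 and 35.5 CPM. Each KI B2 library was below each control B2 library, and the means were 86.6 CPM (SD 15.2, n = 3) for control and 32.8 CPM (SD 7.12, n = 3) for KI. The fitted log2 fold change was -1.40 (SE 0.31, 95% interval -2.04 to -0.76), or 2.64-fold lower in KI B2. This contrast chose the gene, so these values are a description and carry no test. The interval does not allow for that choice and is not to be read as a test against 0. Leaving out each library in turn, or replicate 3 of every group, kept the log2 fold change between -1.54 and -1.23. Over all genes, 1 of 15148 (0.0066%) was called in KI against control B2, which took both an adjusted p under 0.05 and a change beyond 1 on the log2 scale in either direction, and in 10.2% the KI and control B2 libraries did not overlap.

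In MemB, the level of St8sia6 was alike in both genotypes within the spread of the libraries. Control MemB had 173, 229 and 129 CPM, and KI MemB had 138, 221 and 150 CPM. The ranges overlapped, and the means were 177 CPM (SD 49.9, n = 3) and 169 CPM (SD 44.6, n = 3). The log2 fold change of KI against control MemB was -0.06 (SE 0.31, adjusted p = 0.975 by edgeR's quasi-likelihood test), with a 95% interval from -0.69 to 0.56. The difference between the genotype effects, MemB minus B2, was 1.34 on the log2 scale (SE 0.44, 95% interval 0.45 to 2.23). It uses the B2 libraries that chose the gene and was not tested, and its interval does not allow for that choice.

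St8sia6 was higher in MemB than in B2. Each of the 6 MemB libraries, at 129 to 229 CPM, was above each of the 6 B2 libraries, at 24.7 to 104 CPM. Averaged over the genotypes, the log2 difference was 1.70 (SE 0.22, 95% interval 1.24 to 2.15), 3.25-fold higher in MemB. It too is given as a description, since KI B2 libraries enter it, and its interval does not allow for the choice of the gene. Within controls, the mean was 86.6 CPM in B2 and 177 CPM in MemB. Among all genes, 153 of 15148 (1.01%) were called between MemB and B2, and 191 (1.26%) had no overlap between the 6 MemB and the 6 B2 libraries, 121 of them higher in MemB.

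**Figure D2:**
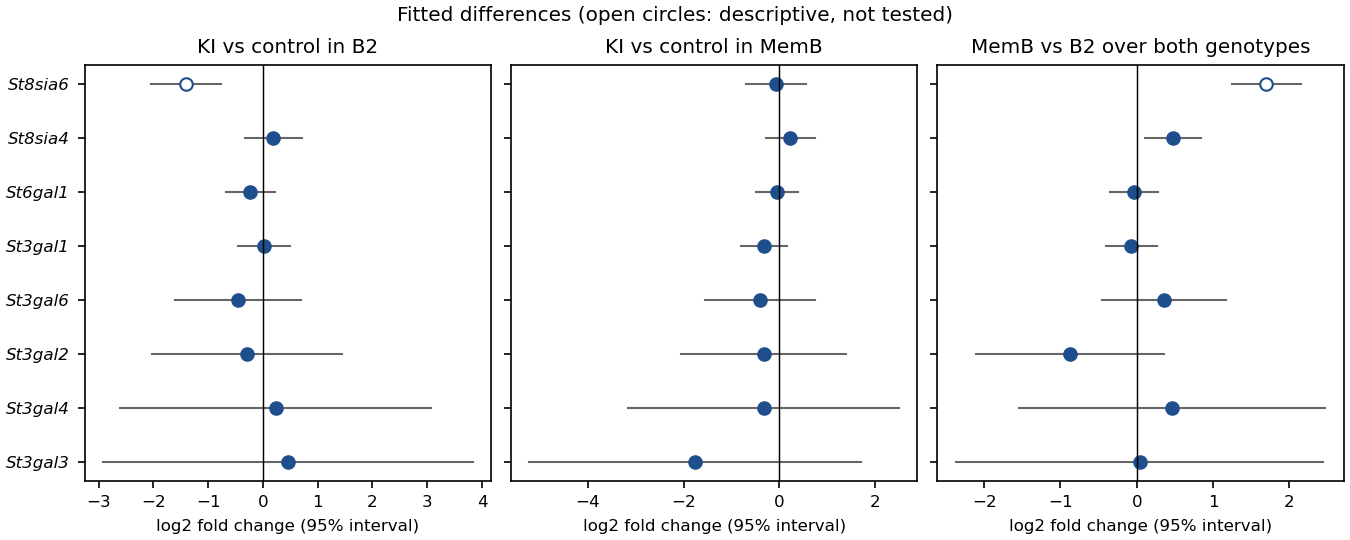
Fitted log2 fold changes (horizontal axes, scaled separately) of the 8 sialyltransferases that passed the filter on low counts, with 95% intervals as lines, for 3 comparisons. Filled circles were tested. Open circles (St8sia6 where KI B2 libraries enter) are descriptions, with intervals that do not allow for the choice of the gene. For the 7 tested members in B2 and the 8 in MemB the intervals include 0, and in MemB against B2 that of St8sia4 does not.

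Of the 9 members, 8 passed the filter on low counts and St8sia1 did not. Of the members other than St8sia6, which was not tested there, none was called between KI and control B2 (0 of 7, 0 at an unadjusted p below 0.05, 0 by DESeq2), against 0.0066% of all genes called and 5.74% of all genes at that unadjusted limit. None of the 8 tested was called between KI and control MemB (0 at an unadjusted p below 0.05), where 43 of all genes (0.284%) were called and 11.1% passed that unadjusted limit. In 12.1% of all genes the KI and control MemB libraries did not overlap, and this held for 0 of these 8 members. Between MemB and B2, 0 of 7 tested members were called by edgeR or DESeq2, and 1 had an unadjusted p below 0.05, against 1.01% of all genes called by edgeR and 12.9% at that unadjusted limit. For the difference of the genotype effects, 0 of 7 were called by either tool, 0 had an unadjusted p below 0.05, against 10 of all genes (0.066%) called by edgeR and 8.49% at that unadjusted limit. The median log2 fold change of the tested members was 0.02 in KI B2 and -0.32 in KI MemB, beside medians over all genes of -0.03 and -0.03. In simulated data of this design, the test recovered 9 of 96 genes changed by 1.5 on the log2 scale and 44 of 98 changed by 3 between KI and control MemB, so an uncalled gene may still differ.

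St8sia4 builds polysialic acid, the long alpha-2,8-linked polymer known from the neural cell adhesion molecule. It had 117, 120 and 177 CPM in control B2 and 170, 150 and 152 CPM in KI B2. In control MemB it had 145, 196 and 225 CPM, and in KI MemB 203, 246 and 218 CPM. The B2 and MemB ranges overlapped through control MemB replicate 1, and the other 5 MemB libraries were above all 6 B2 libraries. St8sia4 was 0.47 higher on the log2 scale in MemB than in B2 (SE 0.18, 95% interval 0.11 to 0.84). Its adjusted p was 0.22 by edgeR, which did not pass. KI against control differed by 0.19 (95% interval -0.33 to 0.71) in B2 and by 0.24 (95% interval -0.28 to 0.75) in MemB.

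St8sia1 adds the second sialic acid of ganglioside GD3 and was barely detected. Its counts were 4, 1 and 0 in control B2, 2, 7 and 3 in KI B2, and 0, 3 and 2 in KI MemB. In control MemB the counts were 385, 6 and 22, so a single library held most of the St8sia1 reads of the series. The lowest control MemB count, 6, lay above the highest KI MemB count, 3, in a gene outside those tested in the main fit. That library, control MemB replicate 1, had 10.9 CPM of St8sia1 against at most 0.659 CPM elsewhere. St3gal5, which makes GM3, the precursor of GD3, had 14.4 CPM in the same library and at most 1.09 CPM in the others; it was picked out after its values were seen. The T and NK cell markers (9 genes) summed to 113 CPM in that library, within the 79.1 to 119 CPM of control MemB and above the 1.98 to 48.8 CPM of KI MemB, and their part in the St8sia1 counts was not tested. St8sia1 was not tested in the main fit. It passed the filter in some edgeR fits with a library left out, and was not called there. Fits without the filter tested it too. DESeq2 called it lower in KI MemB (log2 fold change -6.21, adjusted p = 0.00627), and edgeR without the filter did not (adjusted p = 0.369). Control MemB replicate 1 was also left out, an alternative chosen after seeing the data. DESeq2 then gave a log2 fold change of -2.97 (unadjusted p = 0.122) and no adjusted p, so St8sia1 was not called. All 3 KI MemB libraries had 3 counts or fewer, so neither DESeq2 fold change has a firm size.

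St6gal1 was the most even member beside St3gal1. It had 344, 300 and 381 CPM in control B2 and 288, 302 and 284 CPM in KI B2. Control MemB had 292, 254 and 394 CPM, and KI MemB had 233, 353 and 324 CPM. KI and control overlapped in both cell types, with KI B2 at the lower edge of control B2. Its log2 fold change was -0.23 in KI B2 (95% interval -0.68 to 0.22), -0.05 in KI MemB (95% interval -0.49 to 0.40) and -0.03 in MemB against B2 (95% interval -0.35 to 0.28). None of these had an adjusted p below 0.968 by edgeR. Across the 12 libraries the highest St6gal1 level was 1.69 times the lowest, whereas for St8sia6 that ratio was 9.25.

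St3gal1 sialylates core 1 O-glycans, the short chains of mucin-type proteins. It had 201, 261 and 261 CPM in control B2 and 218, 223 and 292 CPM in KI B2. Control MemB had 245, 252 and 274 CPM, and KI MemB had 260, 178 and 181 CPM. Replicates 2 and 3 of KI MemB were below all other libraries, but replicate 1 lay within the control MemB range. The log2 fold change in KI MemB was -0.32 (SE 0.23, 95% interval -0.79 to 0.16, adjusted p = 0.663 by edgeR), and in KI B2 it was 0.02 (95% interval -0.45 to 0.49). Between MemB and B2 St3gal1 differed by -0.07 (95% interval -0.41 to 0.26).

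The other St3gal genes were low and uneven between replicates. St3gal6, which with St3gal4 sialylates the lactosamine ends that selectin ligands carry, had 11.5, 48.0 and 29.3 CPM in control B2 and 22.6, 24.8 and 17.4 CPM in KI B2. It had 45.6, 35.2 and 31.0 CPM in control MemB and 35.6, 27.1 and 21.7 CPM in KI MemB. KI was below control by the mean in both cell types, but the ranges overlapped and the log2 fold changes were -0.45 (SE 0.56) in B2 and -0.41 (SE 0.56) in MemB.

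St3gal2, which acts on core 1 O-glycans and gangliosides, had 34.9, 39.4 and 1.47 CPM in control B2 and 15.4, 15.1 and 31.4 CPM in KI B2. Control MemB had 24.7, 13.9 and 3.15 CPM, and KI MemB had 7.06, 16.1 and 10.1 CPM. Its replicates within control B2 and within control MemB thus differed more than the group means did. St3gal4 ranged from 0.0959 to 12.05 CPM and St3gal3 from 0.205 to 11.001 CPM over the 12 libraries, and KI and control overlapped in both cell types. Their standard errors were 0.98 to 1.70 on the log2 scale in the comparisons of genotype within a cell type and of cell types, so changes of several fold in either direction were not detectable at this depth and spread.

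As a share of the summed RPKM of the 9 genes, St8sia6 made up 10.9% of the control B2 total (SD 2.46, n = 3) and 4.68% of the KI B2 total (SD 0.863, n = 3). In MemB it made up 19.7% of the control total (SD 6.32, n = 3) and 20.3% of the KI total (SD 3.49, n = 3). Its share was lowest in the KI B2 libraries, at 3.81% to 5.53%, and highest in control MemB replicate 2, at 26.04%. The 3 St8sia genes together made up 17.5% (SD 1.88, n = 3) of the control B2 total and 13.3% (SD 0.854, n = 3) of the KI B2 total. In MemB they made up 27.97% (SD 6.15, n = 3) of the control total and 30.6% (SD 3.602, n = 3) of the KI total. St6gal1 held 42.02% of the control B2 total and 41.2% in KI B2, against 33.8% in control MemB and 35.99% in KI MemB. The 5 St3gal genes held 40.5% and 45.5% in control and KI B2, and 38.2% and 33.5% in control and KI MemB. These shares use merged exons, and shares by longest coding transcript were not computed. For St6gal1 those lengths are 7807 and 4926 bases, so the order of the families can depend on the length used. Since shares add up to a whole, a higher St8sia6 share lowers those of the others without any change in their transcripts. By CPM, St6gal1 and St3gal1 did not differ between MemB and B2 beyond their spread.

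**Figure D3:**
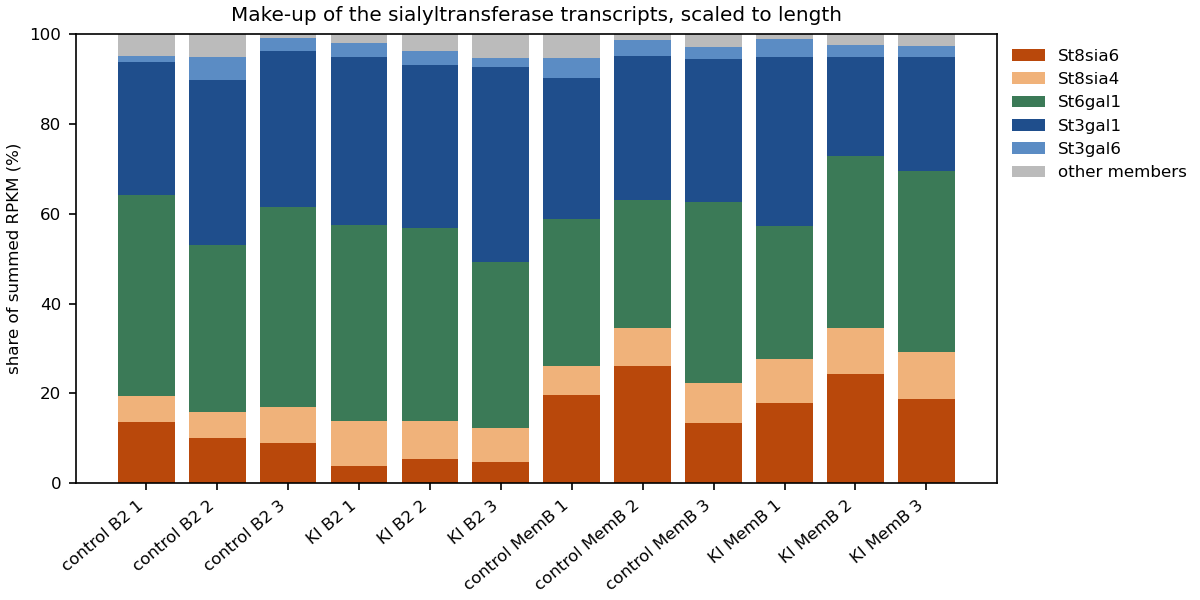
Share (%) of each sialyltransferase in the summed RPKM of the 9 genes, 1 bar per library, with St8sia1, St3gal2, St3gal3 and St3gal4 joined as other members. St8sia6 takes 3.81% to 5.53% of the bars of KI B2, and together the St8sia genes take 22.4% to 34.6% of the MemB bars.

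The pattern of St8sia6 over the libraries was set beside that of 9720 genes with a mean of at least 5 CPM, by Pearson's r of log2 CPM over 12 libraries. The closest genes were Cacna1s (r = 0.912), which encodes a calcium channel subunit, Gdi2 (r = 0.900), a regulator of Rab GTPases, and Bhlhe41 (r = 0.896), a transcription factor of B-1 cells. The same 3 came first with a smaller prior count of 0.5. The 12 points fall into 4 groups, so these values describe shared group differences and carry no test. Cacna1s had 3.50 to 14.4 CPM in control B2, 1.54 to 2.66 CPM in KI B2, 10.4 to 20.9 CPM in control MemB and 11.4 to 17.8 CPM in KI MemB. Gdi2 had 250 to 347 CPM in control B2, 171 to 232 CPM in KI B2, 353 to 504 CPM in control MemB and 403 to 461 CPM in KI MemB. Within the family the values were lower, with 0.430 for St8sia4, 0.354 for St3gal6, 0.052 for St6gal1, -0.123 for St3gal2 and -0.228 for St3gal1. Cmah, the enzyme that hydroxylates the CMP-sialic acid donor, had 0.769.

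**Figure D4:**
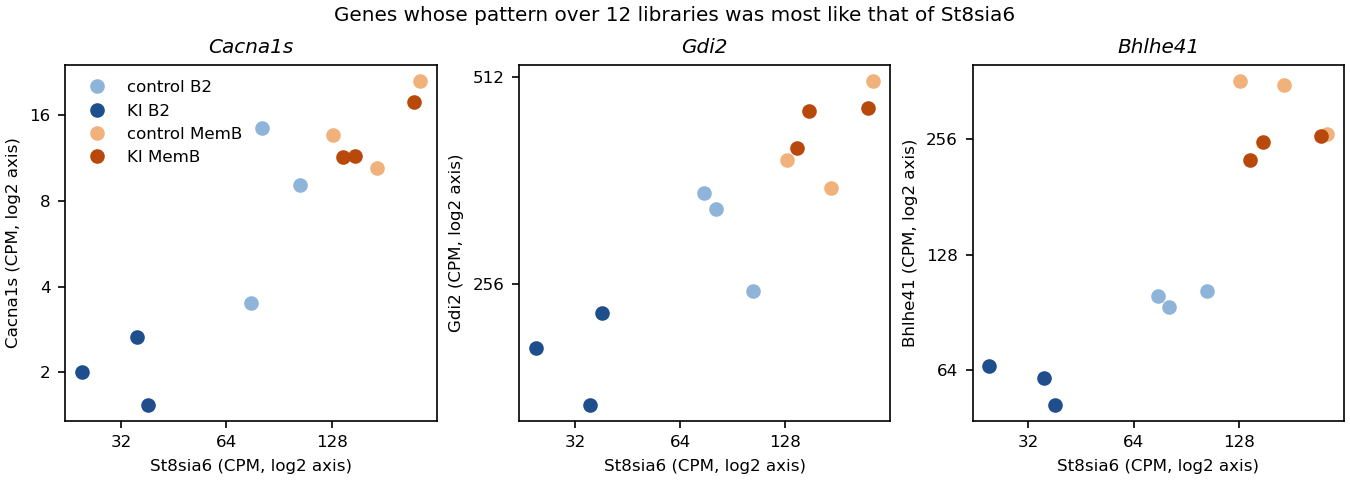
CPM of Cacna1s, Gdi2 and Bhlhe41 against CPM of St8sia6 (all axes log2) in 12 libraries, coloured by group. In each panel the KI B2 libraries sit at the low end of St8sia6 (24.7 to 38.2 CPM) and the MemB libraries at its high end (129 to 229 CPM).

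Bhlhe41 moved with St8sia6 and belongs to a list of 5 B-1 cell markers. It had 93.4 to 103 CPM in control B2, 51.9 to 65.4 CPM in KI B2, 265 to 362 CPM in control MemB and 226 to 261 CPM in KI MemB. Its log2 difference was -0.73 in KI B2 and 1.89 in MemB against B2, given without a test because the gene was picked for its likeness to St8sia6 over the same libraries. Of the other 4 markers, edgeR called Zbtb32 (log2 fold change 1.40) higher in MemB, against 1.01% of all genes called. Zbtb32 was not called without replicate 3 of every group (log2 fold change 1.21, adjusted p = 0.0979 by edgeR). The remaining markers had log2 values of 0.55 (Ctla4), -0.36 (Plscr1) and -0.46 (Cd5) in MemB against B2 and were not called. None of these 4 was called between KI and control in either cell type by edgeR. The 5 together summed to 144 to 226 CPM in control B2, 117 to 222 CPM in KI B2, 518 to 548 CPM in control MemB and 390 to 434 CPM in KI MemB. Cd5, the defining surface marker of B-1a cells, was at 0.491 to 12.1 CPM in B2, at 8.72 to 14.1 CPM in control MemB and at 0.130 to 1.96 CPM in KI MemB (log2 fold change -3.85, adjusted p = 0.349 by edgeR). In KI MemB, Cd5, Bhlhe41 and Plscr1 (17.8 to 33.3 CPM in control MemB, 3.65 to 13.1 CPM in KI MemB) were each below control MemB with no overlap, as 12.1% of all genes had no overlap in either direction. The B-1 sums overlapped between KI and control B2 and did not overlap between KI and control MemB. Of the 5 markers, only Bhlhe41 was lower in KI B2 with no overlap, which 10.2% of all genes lacked in either direction. Mzb1 of the plasma cell markers (r = 0.711 with St8sia6) was also lower in KI B2 with no overlap, as in 10.2% of all genes. It had 59.0 to 105 CPM in control B2 and 44.5 to 57.4 CPM in KI B2. It was not called there (adjusted p = 0.849 by edgeR). Xbp1 and Prdm1 went the other way, with log2 values of 0.50 and 0.15. The plasma cell sums overlapped, at 313 to 449 CPM in control and 248 to 402 CPM in KI B2. The part of these B-1 and plasma cell markers in the St8sia6 levels was not tested. Mast cell markers summed to 241 CPM in control MemB replicate 3, 45.0 CPM in control MemB replicate 1 and 74.9 CPM in KI B2 replicate 3, against at most 1.77 CPM elsewhere. St8sia6 was at 129 CPM in control MemB replicate 3, the lowest of the 6 MemB libraries, at 173 CPM in control MemB replicate 1 and at 35.5 CPM in KI B2 replicate 3, between the other KI B2 libraries. The part of mast cell RNA in these values was not tested. The 5 mesothelial markers were at 0 in all libraries.

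Beyond the 9 members, edgeR called 1 gene of the lists that make, modify, remove and bind sialic acid, in 1 comparison. The calls among all genes were 0.0066% in KI B2, 0.284% in KI MemB, 1.01% between MemB and B2 and 0.066% for the difference of the genotype effects, so counts of 0 in lists of this size are near the background. Among 11 other sialyltransferases, 5 were at 0 in all libraries, 5 were tested and none was called in any comparison. St6galnac4, the most abundant of them, had means of 20.4 CPM in control B2, 10.9 CPM in KI B2, 23.4 CPM in control MemB and 20.9 CPM in KI MemB, with SDs of 6.55 to 17.6 CPM. St6galnac3 and St6galnac6 had group means of 3.72 to 10.7 CPM and of 4.08 to 7.65 CPM, with libraries of 1.5002 to 27.9 CPM and of 0.195 to 14.4 CPM. All 6 genes of donor synthesis and transport were tested, and none was called. Cmah had 256 to 379 CPM in the B2 libraries and 443 to 586 CPM in the MemB libraries, with no overlap. It was 0.73 higher on the log2 scale in MemB (SE 0.14, adjusted p = 0.00327 by edgeR), below the fold limit, with adjusted p values of 0.00105 to 0.108 over the alternatives. Gne, which starts sialic acid synthesis, had group means of 21.3 to 28.2 CPM and log2 fold changes of 0.087 in KI B2 and 0.27 in KI MemB. Slc35a1, the Golgi carrier of CMP-sialic acid, had group means of 14.5 to 28.4 CPM.

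Of 8 genes of sialic acid removal and modification, 5 were tested and none was called. Neu1, the lysosomal sialidase, averaged 15.01 CPM (SD 9.604, n = 3) for control B2 and 10.4 CPM (SD 4.501, n = 3) for KI B2, and 51.02 CPM (SD 15.9, n = 3) for control MemB and 23.5 CPM (SD 7.76, n = 3) for KI MemB. Its log2 difference between MemB and B2 was 1.47 (adjusted p = 0.115 by edgeR). Ctsa, the cathepsin that protects Neu1, and Casd1, which O-acetylates sialic acid, had group means of 57.9 to 88.8 CPM and of 17.6 to 34.01 CPM. Of 22 genes that build the acceptor glycans, 18 were tested and none was called. B4galnt1, which extends gangliosides, had means of 272 and 277 CPM in control and KI B2 and of 331 and 475 CPM in control and KI MemB, with an adjusted p of 0.38 for KI against control MemB by edgeR. Man2a1, a mannosidase of N-glycan processing, had group means of 117 to 159 CPM, and Ugcg, which starts glycosphingolipid synthesis, of 109 to 144 CPM.

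Of 9 Siglec receptors, only Cd22 and Siglecg passed the filter (Siglech, the next by mean, did not), and Siglecg was the 1 pathway gene called. It fell in KI MemB, with 384, 233 and 414 CPM in control MemB and 110, 202 and 172 CPM in KI MemB. The ranges did not overlap, as in 12.1% of all genes, and the log2 fold change was -1.09 (SE 0.24, adjusted p = 0.0354 by edgeR). The call did not hold without control MemB replicate 1 or 3 or without KI MemB replicate 1 or 3, with adjusted p values of 0.0963 to 0.316, nor with replicate 3 of every group left out (adjusted p = 0.374). By edgeR it was also lost with the replicate block (adjusted p = 0.057), when the fit was not robust (adjusted p = 0.128) and with the 6 MemB libraries alone (adjusted p = 0.213). Sums of some marker lists differed in the same comparison. The B-1 sums (518 to 548 CPM in control and 390 to 434 CPM in KI MemB) and the T and NK sums (79.1 to 119 CPM and 1.98 to 48.8 CPM) did not overlap. The B-1 sum came mostly from Bhlhe41 (means of 327 CPM in control and 246 CPM in KI MemB) and Zbtb32 (141 and 146 CPM), so it does not by itself show other cells. Mast cell sums were 45.0, 1.53 and 241 CPM in control MemB and at most 1.77 CPM in KI MemB. Of these lists, edgeR called Nkg7 of T and NK cells and Cma1 of mast cells lower in KI MemB (adjusted p = 0.0374 for each). The 6 plasma cell markers summed to 401 to 641 CPM in control and 432 to 578 CPM in KI MemB, and its members went in both directions. Of them Jchain, which joins IgM and IgA units, was at 5.57 to 18.0 CPM in control and 72.1 to 196 CPM in KI MemB (13.9-fold higher, adjusted p = 0.00495 by edgeR), the only 1 of the 6 called. Irf4 had 267 to 385 CPM in control and 202 to 241 CPM in KI MemB, and Mzb1 had 99.5 to 146 CPM and 57.2 to 98.4 CPM, both lower with no overlap and not called. The log2 values of the remaining 3 were 0.067 for Xbp1, -0.57 for Prdm1 and 6.81 for Sdc1, which had 14.4 CPM in 1 KI MemB library and at most 0.0899 CPM in the other MemB libraries. The part of these markers in the Siglecg values was not tested. In B2 it had 326 to 433 CPM in control and 302 to 369 CPM in KI libraries (log2 fold change -0.15, adjusted p = 0.999). The difference between the genotype effects was -0.94 (adjusted p = 0.414 by edgeR) and did not pass. Cd22, the receptor for the caps that St6gal1 makes, had means of 418 CPM in control B2, 364 CPM in KI B2, 399 CPM in control MemB and 480 CPM in KI MemB, and was not called in any comparison.

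**Figure D5:**
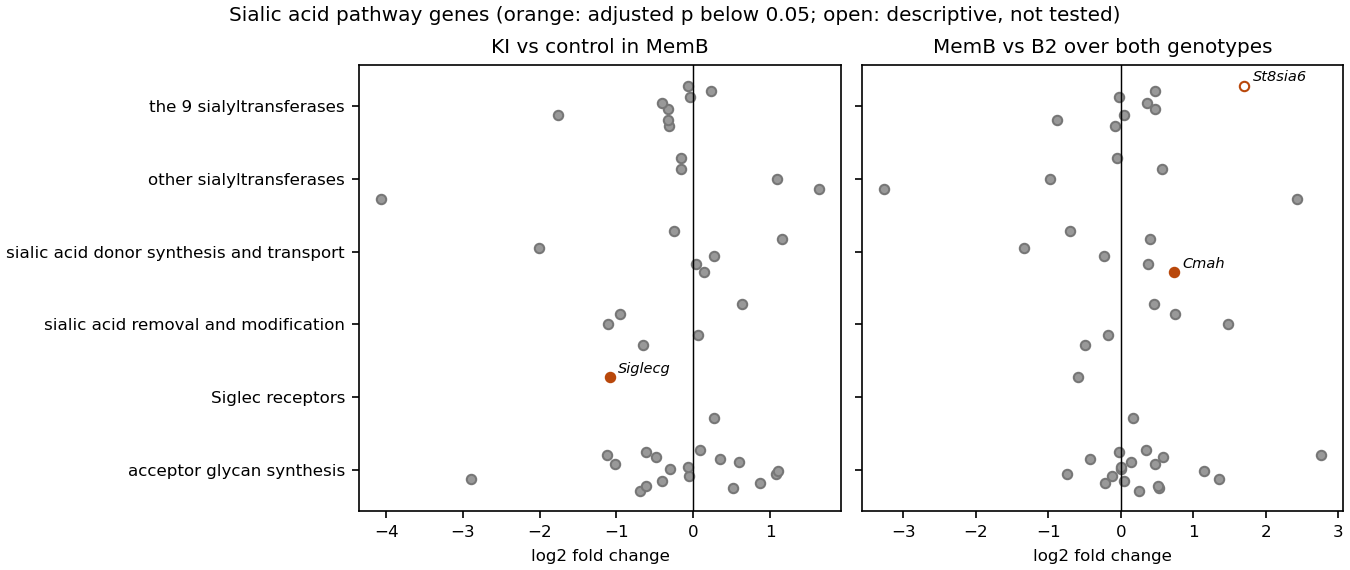
Log2 fold changes (horizontal axes, scaled separately) of the tested genes of 6 sialic acid lists in KI against control MemB and in MemB against B2, with 1 point per gene. Orange points have an adjusted p below 0.05 (Siglecg at -1.09 and Cmah at 0.73), and the open point is St8sia6 at 1.70, which was not tested there.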

How the data were processed

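RNAseq libraries of sorted PerC B2 and MemB from control and KI mice were analysed, 3 per group, grouped by the labels. RNA was amplified with the Ovation system. Per the labels, cutadapt 4.5 trimmed the reads and STAR 2.7.11a aligned them (mm39); the authors deposited RSEM 1.3.3 expected counts per gene, not normalized; annotation release and strand setting were not given in the sources used here. RSEM shares reads between similar genes, and 32.2% of non-zero values were not whole; all were rounded. With edgeR 4.0.16 in R 4.3.3 (limma 3.58.1), genes were filtered with filterByExpr (minimum count 10), TMM-normalized, and fitted by robust quasi-likelihood in a model of 12 libraries and 4 group means, with Benjamini-Hochberg adjustment over 15148 genes. The standard error is the log2 fold change divided by the square root of F. CPM were also divided by exon length (GENCODE M39) to give RPKM. DESeq2 1.42.0 and the alternatives in the closing section were run; fits were tested on simulated data, where 3 of 56 calls were false. Upstream sequences were read from GRCm39.

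The members and gene lists were chosen with earlier results of these data known. Genes beyond the 9 members were named where a list gene was called (up to 5 per comparison by adjusted p), for the 3 highest means per list, and for the 3 patterns nearest to St8sia6. Marker genes came from the lists, and Zbtb32, Cd5, Plscr1, Ctla4, Nkg7, Cma1, Sdc1, Xbp1, Prdm1, Irf4, Mzb1, Jchain and St3gal5 were singled out from them after their values were seen. Between 29895031 and 39732039 counts per library cover counting error only, since amplified reads are not independent molecules, and a group with 3 counts or fewer in every library was treated as at the floor.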

Additional observations from a re-analysis of the deposited data

How the results depend on the processing

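St8sia6 kept its lower level in KI B2 and its higher level in MemB under every alternative run (other normalizations, no filter, DESeq2, fits that were not robust, on 6 libraries or with blocks, and each library or replicate 3 of every group left out). St8sia6 was chosen for its low KI B2 libraries, which enter both values, so these refits describe the processing and are no test of either difference. In KI B2, 8 genes were called without the filter and 199 by DESeq2, against 1. In KI MemB, 90 were called without the filter, 784 by DESeq2, 22 when the fit was not robust and 15 with 6 libraries, against 43; DESeq2 called 1 sialyltransferase there, St8sia1. Between MemB and B2, 236 were called without the filter and 826 by DESeq2, against 153. For the difference of the genotype effects, 44 were called without the filter, 420 by DESeq2, 4 when not robust and 6 with the replicate block, against 10. The causes were not tested, beyond DESeq2 and the unfiltered fit taking in more genes.

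Same-numbered libraries deviated from their group means with correlations of -0.026 to 0.034. At this spread between replicates, such values cannot exclude that the numbers pair the samples. The labels do not state a pairing, so the main fit had none and blocks were run as alternatives. With the replicate block the log2 value of St3gal2 in KI B2 turned to 0.29 and that of St3gal3 to -0.90, and that of St3gal3 in MemB against B2 to -1.01. With the mouse (genotype and number) as replicate block it was -0.93, and the differences of genotype effects turned to 1.25 for St3gal4 and -0.15 for St3gal6. None of these was called.

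Leaving out 1 library at a time, or replicate 3 of every group, gave 1 to 2 genes called in KI B2, 15 (without KI MemB replicate 1) to 50 in KI MemB, 88 (without replicate 3 of every group) to 157 between MemB and B2, and 5 to 10 for the difference of the genotype effects, and no sialyltransferase by edgeR. The log2 values in KI B2 then ranged from -0.13 to 0.10 for St3gal1, -1.27 to 0.18 for St3gal2, -0.67 to 1.38 for St3gal3, -0.33 to 0.80 for St3gal4 and -0.82 to 0.078 for St3gal6. The log2 values in KI MemB then ranged from -0.30 to 0.17 for St8sia6, -0.18 to 0.15 for St6gal1, -0.79 to 0.39 for St3gal2, -2.42 to 1.51 for St3gal3 and -0.89 to 0.70 for St3gal4. The log2 values in MemB against B2 then ranged from -0.13 to 0.049 for St6gal1, -0.17 to 0.059 for St3gal1, -1.82 to 0.49 for St3gal3 and -0.046 to 0.75 for St3gal4. The log2 values for the difference of the genotype effects then ranged from -0.18 to 0.20 for St8sia4, -0.51 to 0.67 for St3gal2, -3.13 to 1.51 for St3gal3, -1.13 to 0.45 for St3gal4 and -0.48 to 0.42 for St3gal6. All these members are uncalled, and the sign of such low or even genes rests on single libraries. Where 1 arm keeps 2 libraries, the spread is shared with the other groups.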
